A study of Homo sapiens with 8 samples.

Results

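The regions described here are the H3K9ac peaks whose centre lay 0 to 1000 bp downstream of the transcription start site (TSS) of a protein-coding gene, as the authors' annotation of each peak gives it. They were chosen by gene type and position alone, not by level. The stromal list held 9301 such peaks among 20326, or 45.8%, and the astromal list held 3868 among 7141, or 54.2%. Together they made 13169 of the 27467 H3K9ac peaks.

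The libraries came from MIA PaCa-2 cells, an established human pancreatic cancer line, grown as spheroids in a hydrogel of thiolated hyaluronan (Glycosil) joined by a PEGDA crosslinker (Extralink). Stromal gels also contained the collagen component Gelin-S, and were fed medium with 2% FBS that immortalized myofibroblasts grown out of human pancreatic tumours had conditioned for 48 hours. Astromal gels had water in place of Gelin-S and plain DMEM with 2% FBS. Both were started in 10% FBS, so the 2 conditions differ in the gel component and in the medium at once. Each condition gave 1 H3K9ac and 1 H3K27ac library, so every difference below is between single libraries, without a replicate check and without a p-value. Condition, culture and library cannot be told apart.

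H3K9ac is acetylation of lysine 9 on histone H3, which GCN5 and PCAF place within the SAGA and ATAC complexes and which marks the nucleosomes beside active promoters. The TSS itself is kept free of nucleosomes, and the first nucleosomes inside the gene are those that RNA polymerase II meets as it leaves the promoter and pauses. H3K27ac, placed by p300 and CBP, is found at active promoters and also at active enhancers.

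The promoters in front of these peaks held more CpG than those of genes without H3K9ac, and about as much as those of genes with an upstream peak only. The 250 bases before the RefSeq gene start (GRCh38.p14) held a median of 23 CpG dinucleotides for genes with a downstream peak in the stromal list only, 20 for genes in the astromal list only, 21 for genes in both lists, and 7 for coding genes nearest to no H3K9ac peak of either list. The median was 24 for genes with an upstream peak and no downstream one, and 17 over all coding genes. A promoter could be matched for 82.5%, 90.5%, 85.1% and 74.1% of these genes in that order. The GC box GGGCGG, searched on both strands, occurred in 73.2%, 61.1%, 67.4% and 39.1% of them, against 70.4% with an upstream peak only and 56.0% of all 15843 coding promoters matched. The TATA box TATAAA, also searched on both strands, occurred in 4.10%, 4.44% and 4.94% of the promoters with a downstream peak, against 4.46% with an upstream peak only, 14.6% of those with no H3K9ac peak and 9.23% of all. The RefSeq start may be another TSS than the one the peak was annotated to, and a match is a description of letters. Shown are the promoters of the highest stromal peaks (YARS2, HNRNPA2B1), of the second highest astromal peak (SRSF5), of a gene with downstream peaks in the stromal list only (PCNT) and one in the astromal list only (CDKN1B), and of the highest and lowest called ratio (TLDC1, TDP2). Capitals mark each CpG.
YARS2, chr12:32755898-32756147, minus strand: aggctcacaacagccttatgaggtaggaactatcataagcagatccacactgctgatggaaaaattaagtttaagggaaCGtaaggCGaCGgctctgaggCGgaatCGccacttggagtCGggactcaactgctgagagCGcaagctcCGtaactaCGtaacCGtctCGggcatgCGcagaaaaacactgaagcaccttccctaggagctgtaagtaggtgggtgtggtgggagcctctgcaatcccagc
HNRNPA2B1, chr7:26200747-26200996, minus strand: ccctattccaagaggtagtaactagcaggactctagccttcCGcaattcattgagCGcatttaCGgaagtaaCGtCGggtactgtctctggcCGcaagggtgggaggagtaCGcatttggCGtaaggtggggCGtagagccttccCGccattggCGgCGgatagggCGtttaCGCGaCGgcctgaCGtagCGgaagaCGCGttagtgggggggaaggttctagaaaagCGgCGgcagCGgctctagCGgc
SRSF5, chr14:69766892-69767141, plus strand: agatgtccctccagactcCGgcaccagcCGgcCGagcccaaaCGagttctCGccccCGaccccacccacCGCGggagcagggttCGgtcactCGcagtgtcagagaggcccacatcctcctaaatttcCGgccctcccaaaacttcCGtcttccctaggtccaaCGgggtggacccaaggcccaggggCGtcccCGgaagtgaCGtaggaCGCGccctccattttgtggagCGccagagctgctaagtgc
PCNT, chr21:46323906-46324155, plus strand: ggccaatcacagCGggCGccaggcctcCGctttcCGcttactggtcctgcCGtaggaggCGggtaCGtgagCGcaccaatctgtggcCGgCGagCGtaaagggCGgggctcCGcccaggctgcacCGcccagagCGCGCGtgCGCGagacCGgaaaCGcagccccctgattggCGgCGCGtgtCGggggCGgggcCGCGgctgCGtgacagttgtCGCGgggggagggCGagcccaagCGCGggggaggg
CDKN1B, chr12:12717118-12717367, plus strand: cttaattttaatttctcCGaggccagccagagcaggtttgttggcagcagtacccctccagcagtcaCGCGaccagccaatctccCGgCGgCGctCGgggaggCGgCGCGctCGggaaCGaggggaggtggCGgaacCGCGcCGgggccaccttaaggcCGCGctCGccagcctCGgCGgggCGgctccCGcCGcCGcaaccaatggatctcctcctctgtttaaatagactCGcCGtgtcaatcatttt
TLDC1, chr16:84504660-84504909, minus strand: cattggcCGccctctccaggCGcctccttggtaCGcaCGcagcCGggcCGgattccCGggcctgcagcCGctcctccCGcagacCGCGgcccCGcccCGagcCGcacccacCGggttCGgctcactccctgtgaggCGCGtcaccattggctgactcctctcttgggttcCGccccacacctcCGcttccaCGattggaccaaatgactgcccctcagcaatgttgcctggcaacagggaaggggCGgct
TDP2, chr6:24666900-24667149, minus strand: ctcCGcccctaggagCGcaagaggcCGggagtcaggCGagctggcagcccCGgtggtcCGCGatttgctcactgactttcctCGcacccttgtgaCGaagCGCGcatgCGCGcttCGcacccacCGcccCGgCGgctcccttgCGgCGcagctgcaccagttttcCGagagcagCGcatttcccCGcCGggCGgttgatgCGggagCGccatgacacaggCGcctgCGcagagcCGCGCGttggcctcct

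These promoters differed widely among themselves: PCNT held 34 CpG and 4 GC boxes, TDP2 31 and 3, CDKN1B 27 and 1, TLDC1 22 and 4, while HNRNPA2B1 held 24 CpG, SRSF5 19 and YARS2 12, each with 0 GC boxes.

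Levels are the deposited tag counts per peak, normalised by the authors to 10000000 tags. Peaks of a list all had the same width, so levels compare between its genes. The stromal H3K9ac library was estimated at 7569708 tags and the astromal at 3922715, so 1 tag was worth 1.32 in the stromal list and 2.55 in the astromal list. The tags inside all peaks made up 5.81% of the stromal library and 1.76% of the astromal library. H3K27ac libraries were deeper, at 17190695 stromal and 13453902 astromal tags. A downstream peak held a median of 22 tags in the stromal list and 9 in the astromal list, so most astromal values below rest on few tags.

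Around coding TSSs, H3K9ac peaks fell mainly on the downstream side. Within 1000 bp on either side, 64.4% of stromal peaks (exact 95% interval 63.6 to 65.2, n = 14444) and 68.2% of astromal peaks (66.9 to 69.4, n = 5675) were downstream. Each interval of a share or tag ratio here covers counting error only, and each interval of a median covers the spread across peaks or pairs only. Centres lay a median of 324 bp into the gene in the stromal list (interval 318 to 331) and 308 bp in the astromal list (300 to 318), with interquartile ranges of 197 to 514 bp and 188 to 476 bp. The order turned among genes with a downstream peak in both lists, where the medians were 304 bp in the stromal list and 313 bp in the astromal list. The fullest 100 bp stretches were the second and the third, with 1957 and 1890 stromal peaks and 830 and 783 astromal peaks. The first 100 bp held only 455 stromal and 260 astromal peaks, and the last 100 bp of the window 205 and 66. Upstream peaks formed a mirror group at a median of -331 bp in the stromal list and -336 bp in the astromal list, fewer in number.

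**Figure D1:**
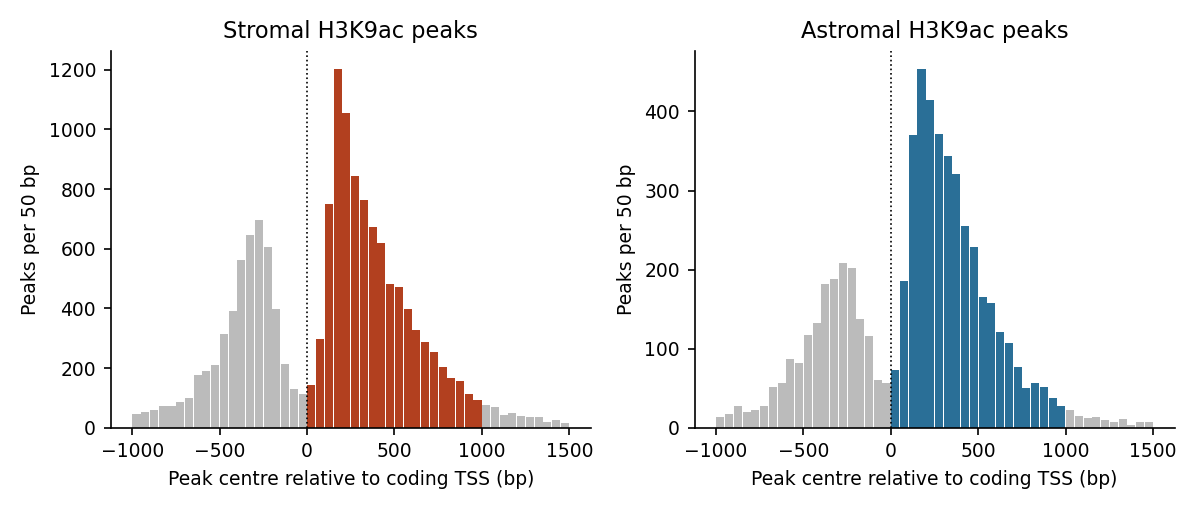
Number of H3K9ac peaks per 50 bp by the position of the peak centre relative to the nearest coding TSS, in the stromal list (left) and the astromal list (right, with its own vertical scale). Coloured bars are the peaks 0 to 1000 bp downstream, 9301 stromal and 3868 astromal, and grey bars the peaks outside that window; both lists have a dip at the TSS and a taller downstream than upstream group.

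Neither edge of the window fell in a gap. The stromal list held 149 peaks in the first 50 bp inside the start against 115 in the 50 bp before it, and 91 peaks in the last 50 bp of the window against 76 in the 50 bp after it. The astromal list held 75 against 57 and 28 against 24 in the same stretches. Just inside in the stromal list were DRAM1 at 0 bp with a level of 33.0 and AURKB at 1000 bp with 15.9, and just outside were SHOX2 at -1 bp with 43.6 and PLAUR at 1001 bp with 27.7. In the astromal list SNUPN at 0 bp (20.4) and MSRA at 1000 bp (17.8) were just inside, and PTBP2 at -3 bp (20.4) and CNKSR3 at 1002 bp (22.9) just outside.

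Most downstream peaks lay in the first intron or the first exon. Introns held 50.1% of stromal and 46.4% of astromal peaks, and 95.6% and 96.7% of these were in intron 1. Exons, as a class apart from the UTRs, held 11.5% and 10.8%, and 5′ UTRs 10.8% and 10.5%. A further 23.7% of stromal and 27.7% of astromal peaks were annotated as a promoter, a class the annotation gives to peaks close to some TSS. A 3′ UTR was named for 11 stromal and 6 astromal peaks only. The authors' detailed annotation gave 26.6% of stromal and 25.3% of astromal downstream peaks the label of a CpG island. It holds 1 label per peak, and only 1 stromal and 0 astromal upstream coding peaks had this one. The shares thus count a label and do not give how many peaks lay in a CpG island.

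Stromal downstream peaks were higher than the astromal ones and spread over a wider range. The median level was 29.1 in the stromal list (interquartile range 21.1 to 38.3, highest 128.1) and 22.9 in the astromal list (20.4 to 28.0, highest 66.3). In the stromal list the median level was 27.7 in the first 100 bp, 31.7 in the second and the third, and lower beyond them, at 22.5 in the last 100 bp. In the astromal list it was 22.9 in every 100 bp stretch but the last, where it was 20.4, which at 2.55 per tag is a step of 1 tag. Upstream peaks had medians of 26.4 in the stromal list and 22.9 in the astromal list.

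The highest stromal peak was at YARS2, which encodes the mitochondrial tyrosyl-tRNA synthetase. It lay 267 bp into the gene, in exon 1 (hg19 chr12:32908515-32908725), at a level of 128.1 from 97 stromal tags, against 56.1 from 22 astromal tags. HNRNPA2B1, an RNA-binding protein of pre-mRNA, followed with 120.2 in the stromal list, 267 bp downstream (chr7:26240041-26240251), against 48.4 in the astromal list. In the astromal list HNRNPA2B1 had a further peak at 762 bp, also at 48.4. The readthrough gene C7orf55-LUC7L2 had 114.9 stromal and 66.3 astromal, its astromal peak being the highest of that list. BDH1, a ketone body dehydrogenase, had 100.4 stromal and 56.1 astromal, and the exocyst gene EXOC4 had 92.5 stromal and 38.2 astromal. All 5 were present in both lists. They were chosen as the highest stromal peaks, all above the highest astromal downstream level of 66.3, so the stromal value was higher by construction.

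After C7orf55-LUC7L2, the highest astromal peaks were at SRSF5 and, level with each other, at COQ10B, DDX5 and MARCH7. SRSF5, a splicing factor, had 62.1 stromal (47 tags) and 61.2 astromal (24 tags), nearly equal. COQ10B, a coenzyme Q binding protein, had 84.5 stromal and 58.6 astromal. DDX5, an RNA helicase, had 75.3 stromal and 58.6 astromal. MARCH7, a ubiquitin ligase, had 81.9 stromal and 58.6 astromal.

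Most astromal downstream peaks recurred in the stromal list, and most stromal ones did not recur in the astromal list. An overlap of at least 1 bp was found for 2989 of 9301 stromal peaks (32.1%, 31.2 to 33.1), against 22% of the stromal peaks elsewhere. It was found for 2993 of 3868 astromal peaks (77.4%, 76.0 to 78.7), against 73.9% of the astromal peaks elsewhere. Recurrence followed level in the stromal list: from the lowest to the highest of 4 level bands it was 6.82%, 19.1%, 35.5% and 63.6%, close to the 4.26%, 16.6%, 34.7% and 62.9% of upstream peaks in the same level bands. Recurrence was lower far from the TSS. In the 5 successive 200 bp stretches it was 37.3%, 37.7%, 27.7%, 19.7% and 15.3% in the stromal list. In the astromal list it was 79.4%, 85.3%, 72.3%, 61.6% and 54.0%, so that the second stretch was above the first. Shared peaks lay a median of 279 bp into the gene in the stromal list, against 349 bp for those not shared, and 293 bp against 402 bp in the astromal list.

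A large part of the unshared stromal group was low. No astromal downstream peak was below 15.3, and stromal peaks were 1.56-fold above their astromal partners at the median. A stromal peak under 23.8 would by that ratio lie under the lowest astromal value. The ratio comes only from sites with an astromal peak, and whether it holds at unshared sites was not tested. Stromal peaks under 23.8 made up 47.8% of the 6312 unshared stromal peaks and 10.7% of the 2989 shared ones. At 1 level floor of 25.5 in both lists, chosen after the data were seen, 5562 stromal and 1642 astromal peaks were left, a ratio of 3.39 against 2.40 for the whole lists. With at least 10 tags in either list, which is a lower level in the deeper stromal library, the ratio was 5.56 (9130 stromal and 1642 astromal peaks).

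Where both lists had a peak at the same site, the stromal level was usually the higher. The 3050 matched pairs with at least 1 downstream peak had a median log2 ratio of 0.64 (interval 0.64 to 0.68), stromal over astromal, with an interquartile range of 0.35 to 0.95. The stromal value was higher in 91.5% of them. Pairs with no downstream peak had a median of 0.59 (0.58 to 0.64, n = 2361), and upstream coding pairs 0.64 (0.59 to 0.64, n = 1355). Matching by overlap limits how far the centres of a pair can differ. Within that limit the median absolute shift was 59 bp, the signed median (stromal minus astromal) -4 bp, and 42.4% of the pairs lay within 50 bp. Both peaks were inside the window in 2932 pairs, only the stromal one in 57 and only the astromal one in 61.

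Few pairs were called as departing from the shared ratio. Centred on the median of all 5411 H3K9ac pairs, 12 downstream pairs were at least 2-fold higher with an exact interval clear of the median, against 0.351% of all pairs, and 18 were at least 2-fold lower, against 0.61% of all pairs. The 2 shares among downstream pairs were 0.393% and 0.590%, near those of all pairs. Without centring, 422 downstream pairs were at least 2-fold higher and 0 lower, against 13.2% and 0% of all pairs. All 18 lower pairs had an uncentred interval that included equal levels, and they are lower only relative to the other pairs. Only sites with a peak in both lists entered, at a median of 9 astromal tags. With 1.5-fold in place of 2-fold, 12 were higher and 21 lower, so the width of the interval set most calls. The low number of calls therefore cannot show that the ratios were uniform.

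**Figure D2:**
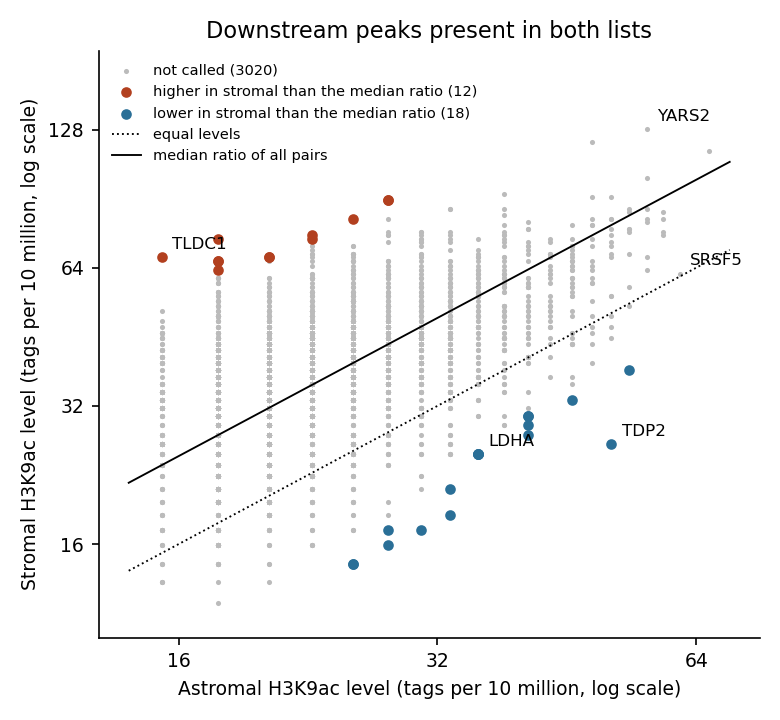
Levels of the 3050 matched downstream pairs, stromal on the vertical and astromal on the horizontal axis, both on log scales, in tags per 10000000. The solid line is the median ratio of all H3K9ac pairs and the dotted line equal levels; 12 pairs (red) lie 2-fold or more above the solid line and 18 (blue) as far below it, each with an interval clear of it.

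The pairs furthest above the median ratio, named after their values were seen, rested on few astromal tags. TLDC1 had 67.4 stromal (51 tags, 159 bp) and 15.3 astromal (6 tags, 160 bp), a log2 ratio of 2.14 (0.92 to 3.65). RINT1, which acts in transport between Golgi and endoplasmic reticulum, had 74.0 stromal and 17.8 astromal. NDUFB3, a subunit of respiratory complex I, had 67.4 stromal and 20.4 astromal. PSMD5, a chaperone of proteasome assembly, had 89.8 stromal and 28.0 astromal. The other 8 were HERC4, RSAD1, CMTR2, HEATR3, KLHL24, MAPK1IP1L, C1RL and TCF25, with log2 ratios between 1.68 and 1.89. Of the 12, 10 overlapped H3K27ac in the stromal library and 11 in the astromal library. Of the 18 lower pairs 11 and 12 did, and of all downstream pairs 52.2% and 62.2%. These shares were not matched for level. The stromal levels of the 12 were 63.4 to 89.8. Overlap of stromal downstream peaks with stromal H3K27ac rose with level, from 12.5% in the lowest of the 4 bands to 56.8% in the highest.

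At the other end TDP2, an enzyme that frees DNA ends from trapped topoisomerase, had 26.4 stromal and 51.0 astromal, each from 20 tags, a log2 ratio of -0.95 (-1.92 to 0.02). The stromal peak lay at 179 bp (hg19 chr6:24666831-24667041) and the astromal peak at 219 bp. CYB561A3, whose promoter is shared with TMEM138, had 38.3 stromal and 53.5 astromal, a log2 ratio of -0.48 (-1.34 to 0.40). LDHA, the lactate dehydrogenase A subunit that ends glycolysis, had 25.1 stromal and 35.7 astromal, from 19 and 14 tags. Also among the 18, and named after their values were seen, were S100A11, a calcium-binding protein (30.4 stromal, 40.8 astromal), BTG1, an antiproliferative gene (21.1 stromal, 33.1 astromal), and EMD, which encodes emerin of the nuclear envelope (17.2 stromal, 30.6 astromal).

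Only 37 downstream pairs had at least 20 tags in each library, and they spread less. Their median log2 ratio was 0.48 (0.36 to 0.54), and the stromal level was higher in 83.8%. An astromal tag was worth more than a stromal one, so 20 tags meant a level of 51.0 for astromal peaks but 26.4 for stromal peaks. The floor thus favoured pairs with a high astromal level, which lowers the ratio by construction. The drop from the values of all downstream pairs therefore cannot be read as a result of better counting. YARS2 led them with 1.19 (0.51 to 1.93), followed by BDH1 with 0.84, the ubiquitin-activating enzyme UBA1 with 0.84 (91.2 stromal, 51.0 astromal) and C7orf55-LUC7L2 with 0.79. ENOSF1, RBM39, AARS and TRA2B came next, between 0.66 and 0.68, and each of their intervals included equal levels. The lowest, above TDP2 and CYB561A3, were C2orf43 with -0.18, ZNF2 with -0.10, TGOLN2 and CYTH2 with -0.02 each, SRSF5 with 0.02 and HBP1 with 0.12, again with intervals that included equal levels. Of the splicing factors, RBM39 and TRA2B (81.9 and 84.5 stromal, 51.0 and 53.5 astromal) were in the upper group and SRSF5 in the lower.

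By gene, 8599 coding genes had a downstream peak in at least 1 list. The stromal list alone covered 4908 of them (57.1%), the astromal list alone 199 (2.31%), and both lists 3492 (40.6%). In genes of both lists the stromal peaks had a median level of 37.0, against 23.8 for stromal peaks of the other genes. In the astromal list both medians were 22.9. The gene counts depend on where a peak of the other list happens to centre. Of the 4908 genes in the stromal list only, 714 (14.5%) had an astromal peak upstream of the same gene, and of the 199 in the astromal list only, 133 (66.8%) had a stromal peak upstream. Counting any peak within 1000 bp on either side left 4194 and 66.

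Among genes covered by the stromal list only, the highest summed levels belonged to a mixed set, and most had astromal signal close by. RFXANK, a subunit of the factor that drives MHC class II genes, had 2 stromal peaks summing to 122.9, but an astromal peak annotated to its neighbour MEF2BNB lay 97 bp from the higher one. GART, an enzyme of purine synthesis, had 92.5 at 217 bp, with an astromal peak of 53.5 at -267 bp. PMVK, the phosphomevalonate kinase of cholesterol synthesis, had 50.2 at 202 bp and 42.3 at 632 bp, with an astromal peak of 33.1 at -135 bp. GGNBP2 had 63.4 at 170 bp and an astromal peak of 35.7 at -225 bp. COMMD5 and FAM117B had astromal peaks 30 and 25 bp from their higher stromal peak, annotated to the upstream side at -236 and -12 bp.

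For the other 4 of the 10 the nearest astromal peak was farther away. TNFRSF10D, a decoy receptor for TRAIL, had stromal peaks of 66.1 at 221 bp and 38.3 at 723 bp, and the nearest astromal peak was 83005 bp away. SHARPIN, a subunit of the linear ubiquitin ligase, had 71.3 at 249 bp and 33.0 at 778 bp, with the nearest astromal peak 42958 bp away. GPRC5A, an orphan receptor, had 55.5 at 50 bp and 38.3 at 808 bp, and its nearest astromal peak (28.0) was 1212 bp away, past the window. PCNT, pericentrin of the centrosome, had 48.9 at 127 bp and 42.3 at 964 bp, and the nearest astromal peak lay 725 bp away at C21orf58.

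Stromal signal also lay close to most of the 10 highest genes covered by the astromal list only. TMEM138 (53.5 astromal at 86 bp), KIAA0391 (43.3 at 98 bp) and IPO9 (43.3 at 178 bp) had stromal peaks 65, 197 and 88 bp away that were annotated to a partner gene. CSNK1A1, casein kinase 1 alpha, had 48.4 at 492 bp, with a stromal peak of 43.6 within 127 bp. PHF23 and TMED1 had stromal peaks of 60.8 and 39.6 within 154 and 53 bp. MSL2, a histone H2B ubiquitin ligase, and PPP2R4, a phosphatase activator, had stromal peaks upstream at -371 and -185 bp. STAG1, a cohesin subunit, had astromal peaks of 33.1 at 779 bp and 22.9 at 163 bp, and a stromal peak of 38.3 at 1344 bp, past the window. CDKN1B, the cyclin-dependent kinase inhibitor p27, stood apart: its astromal peak of 45.9 (18 tags, 434 bp, hg19 chr12:12870538-12870738) had its nearest stromal peak 21190 bp away.

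Several peaks per gene were more frequent in the stromal list. There 867 of 8400 genes had more than 1 downstream peak, against 175 of 3691 genes in the astromal list. Neighbouring peaks downstream of the same TSS were a median of 569 bp apart in the stromal list and 523 bp in the astromal list. UBE2D3, a ubiquitin-conjugating enzyme, had 4 stromal peaks at levels of 50.2, 38.3, 34.3 and 23.8, from more than 1 TSS, and 1 astromal peak of 22.9. VGLL4, a cofactor of TEAD factors, had 4 stromal peaks of 13.2 to 18.5 and none in the astromal list. SLC3A2, the heavy chain of amino acid transporters, had 3 stromal peaks summing to 142.7 and 2 astromal peaks summing to 66.3. TM4SF18 and LAPTM4A went the other way, with 1 stromal peak each (33.0 and 50.2) and 3 astromal peaks each (summing to 79.0 and 73.9). A transcript with a downstream peak also had an upstream one in 20.4% of cases in the stromal list and 7.95% in the astromal list, and the downstream level was then 0.10 (log2, median) above the upstream level in the stromal list and equal to it (0.00) in the astromal list.

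Downstream H3K9ac peaks overlapped H3K27ac of the same condition less often than upstream ones did. In the stromal libraries 3269 of 9301 did (35.1%, 34.2 to 36.1), against 43.8% of the stromal H3K9ac peaks elsewhere and 52.1% (50.7 to 53.5) of the upstream coding peaks. In the astromal libraries 2201 of 3868 did (56.9%, 55.3 to 58.5), against 63% elsewhere and 70.7% (68.5 to 72.8) upstream. The gap was present at every level of H3K9ac. In the lowest band of stromal levels the shares were 12.5% downstream and 29.4% upstream, and in the highest 56.8% and 71.1%. In the lowest band of astromal levels they were 46.8% downstream and 62.7% upstream, and in the highest 69.6% and 77.1%. The downstream and upstream intervals did not overlap in any of the 4 bands of either list. Around the 10322 coding TSSs that had H3K9ac within 1000 bp and a known strand, 50.9% of stromal and 53.5% of astromal H3K27ac peaks were downstream, against 63.1% and 66.6% of H3K9ac peaks, but these TSSs were chosen by H3K9ac.

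**Figure D3:**
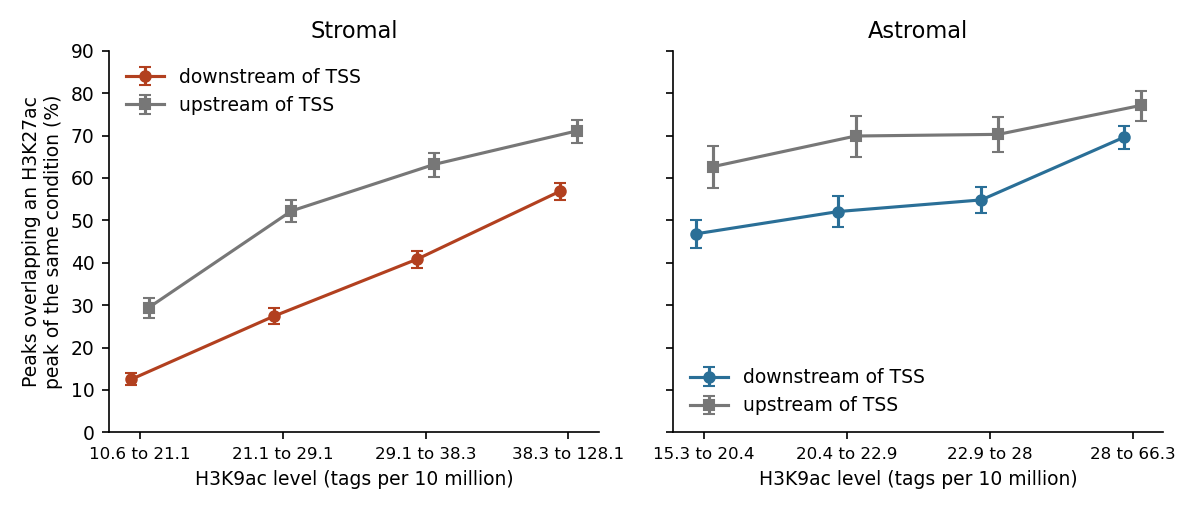
Share of H3K9ac peaks that overlap an H3K27ac peak of the same condition, by H3K9ac level in tags per 10000000, for stromal (left) and astromal (right) libraries; coloured circles are downstream and grey squares upstream peaks, with exact 95% intervals. In the lowest bands the downstream shares are 12.5% (stromal) and 46.8% (astromal), and in each of the 4 bands of either panel the downstream share is below the upstream one.

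The H3K27ac lists were of similar length, 15093 stromal and 14489 astromal peaks. Stromal H3K9ac peaks overlapped astromal H3K27ac (41.4%) more often than stromal H3K27ac (35.1%). The astromal H3K27ac peaks were also wider, at 197 bp against 175 bp, and the part of the width in these shares was not tested. Shared sites overlapped H3K27ac of their own condition in 52.2% of stromal and 62.1% of astromal peaks, and unshared sites in 27.1% and 39.2%. Of the 6312 unshared stromal peaks, 59.9% overlapped H3K27ac of neither condition, against 26.8% of the shared ones. H3K27ac peaks had to pass a filter of 4-fold over the surrounding 10000 bp, per the file headers, so a peak without overlap is one without a listed H3K27ac peak.

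Among overlapping peaks, whose centres can differ only by about a peak's width, the H3K27ac centre lay a median of 7 bp (stromal) and 5 bp (astromal) farther into the gene than the H3K9ac centre. The interquartile ranges of that offset were -42 to 59 bp (stromal) and -58 to 56 bp (astromal). H3K9ac and H3K27ac levels had a Spearman rho of 0.44 over 3269 stromal overlaps and 0.39 over 2201 astromal overlaps, as a description across sites of the same libraries. Overlapping peaks lay nearer to the TSS, at a median of 286 bp against 346 bp for peaks without overlap in the stromal list, and 281 bp against 353 bp in the astromal list. Peaks without overlap were a median of 1086 bp (stromal) and 586 bp (astromal) from the nearest H3K27ac peak, and 41.3% and 22.3% of them were more than 5000 bp from any.

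The ratios of H3K27ac per peak on these sites had the opposite sign. H3K27ac peaks were 175 bp wide in the stromal list and 197 bp in the astromal list. A wider peak collects more tags, and these ratios were not corrected for width. The part of the width in the sign was not tested. H3K27ac pairs on a downstream H3K9ac peak had a median log2 ratio of -0.24 (-0.25 to -0.22, n = 2598), stromal over astromal, against -0.16 (-0.18 to -0.15, n = 6215) on none. Over the 1269 sites with both marks in both conditions, the median ratio was 0.71 for H3K9ac and -0.25 for H3K27ac, and the rho between the ratios was -0.03. Both marks in a condition come from separate libraries of different depth.

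Some of the strongest downstream H3K9ac peaks overlapped no H3K27ac peak of their own condition. FLCN, the tumour suppressor folliculin, had a stromal peak of 87.2 (66 tags, 222 bp) without an overlapping H3K27ac peak in either condition. AARS, the cytosolic alanyl-tRNA synthetase, had 85.9 stromal at 272 bp and 53.5 astromal at 184 bp, also without such an overlap in either. UBA1 (91.2 stromal), PPP1R15A, a phosphatase subunit of the integrated stress response (85.9 stromal), and SUMF2 (85.9 stromal) lacked stromal H3K27ac at the peak but overlapped astromal H3K27ac. In the astromal list LUC7L2, a splicing factor (53.5, 176 bp), and PHC3, a Polycomb protein (51.0, 556 bp), overlapped H3K27ac of neither condition at these peaks. CEP95 (53.5) and CSNK1A1 (48.4) overlapped stromal H3K27ac only. LUC7L2 had a further astromal peak at 982 bp that overlapped H3K27ac of both conditions, and UBA1 a further stromal peak that overlapped stromal H3K27ac. The 5 highest stromal peaks, at YARS2, HNRNPA2B1, C7orf55-LUC7L2, BDH1 and EXOC4, overlapped H3K27ac of both conditions.

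The excess of stromal peaks was uneven across chromosomes. Their number was 4.65 times the astromal number on chromosome 4 (3.56 to 6.16, 307 stromal and 66 astromal peaks), 3.90 times on chromosome 15, 3.52 on 22, 3.22 on 9, 3.21 on 8 and 3.14 on 13. On the other 17 chromosomes it was between 1.86 (chromosome 7) and 2.45 (chromosome X). The 6 chromosomes with the largest excess also had low stromal levels, with medians of 21.1 to 25.1 against 35.7 on chromosome 7. Chromosome X, with 25.1, had a low level without a large excess. Across 23 chromosomes the rho between the number ratio and the stromal median was -0.88, and the stromal H3K9ac median had a rho of 0.87 with the stromal and 0.94 with the astromal median H3K27ac level. The H3K27ac peak numbers on those 6 chromosomes differed little between conditions, at 1.00 to 1.12 times. The chromosomes share their libraries, and the part that the lower level of both marks on them has in the number ratio was not tested.

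**Figure D4:**
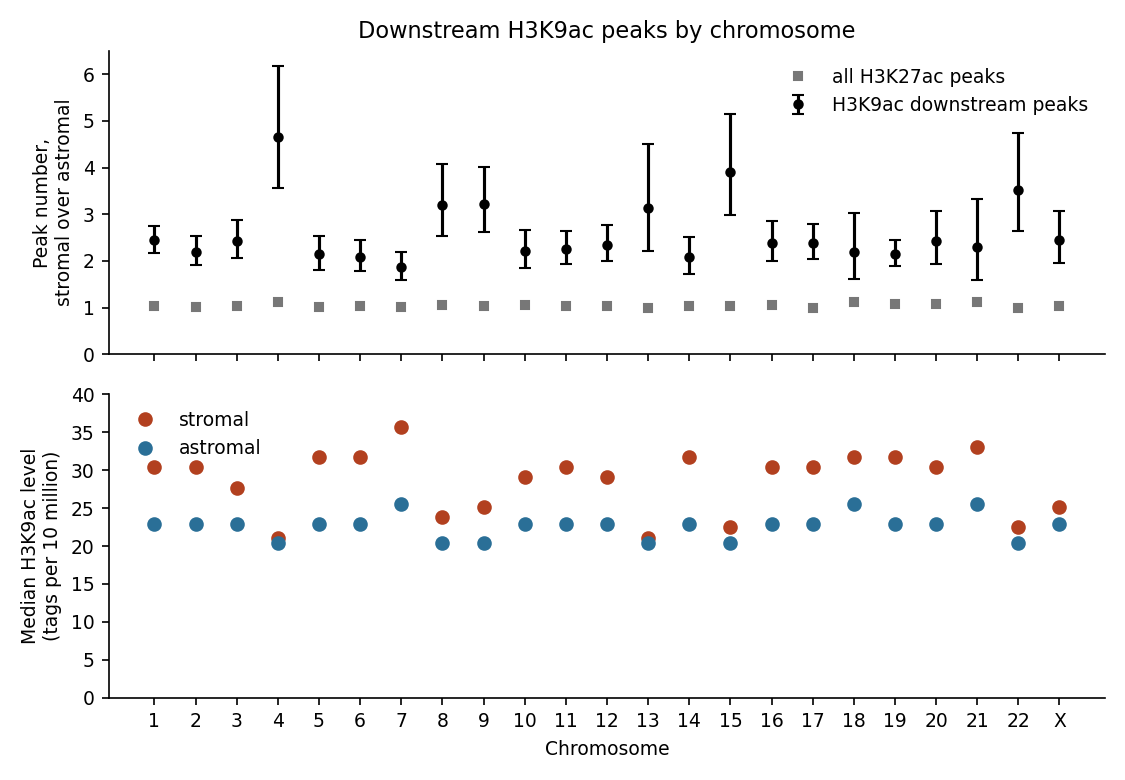
Upper panel: stromal over astromal number of downstream H3K9ac peaks on each chromosome with exact 95% intervals (black), and the same ratio for all H3K27ac peaks (grey squares). Lower panel: median level of the downstream H3K9ac peaks in tags per 10000000; chromosome 4, with a ratio of 4.65, had a stromal median of 21.1 and an astromal median of 20.4.

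Genes of the machinery that writes, erases and passes through H3K9ac carried downstream peaks themselves. Of 32 listed acetyltransferase, SAGA and ATAC genes, 25 had a downstream peak, 13 in the stromal list only, 1 in the astromal list only and 11 in both. KAT2A, which encodes GCN5, had 39.6 stromal at 181 bp and 22.9 astromal at 179 bp. KAT2B, which encodes PCAF, had 27.7 in the stromal list only. SUPT3H, a SAGA core subunit, had 68.7 stromal and 43.3 astromal, and EP300, which encodes p300, 31.7 stromal and 15.3 astromal. Of 27 deacetylase and corepressor genes 22 had a peak, 12 in the stromal list only and 10 in both, such as HDAC1 (34.3 stromal, 28.0 astromal) and HDAC6 (50.2 stromal, 35.7 astromal). Their shares in both lists, 44% and 45.5%, compare with 40.6% of all 8599 genes. The shares in the stromal list only, 52% and 54.5%, compare with 57.1%. These 8599 are the genes with a downstream peak, and 20056 coding genes were counted for the promoters.

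Pausing and elongation factors had a downstream peak in 31 of 44 genes. Of these, 13 (41.9%) were in the stromal list only, 2 (6.45%) in the astromal list only and 16 (51.6%) in both. Over all 8599 genes with a downstream peak these shares were 57.1%, 2.31% and 40.6%. CDK13 (71.3 stromal, 45.9 astromal), a kinase of the polymerase tail, and SUPT6H (60.8 stromal, 45.9 astromal), a histone chaperone of elongation, were among the highest. CDK9 and CCNT1, the kinase and cyclin of P-TEFb, had 27.7 each in the stromal list only. HEXIM1, an inhibitor of P-TEFb, had 35.7 at 732 bp in the astromal list only, and its nearest stromal peak was 13312 bp away at HEXIM2. HEXIM2 itself had 68.7 stromal and 43.3 astromal. No pair of these genes was called in either direction.

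Serine, one-carbon and amino acid response genes had the highest share in both lists of the lists examined, with 15 of 24 (62.5%) against 40.6% of all 8599 genes, beside 8 in the stromal list only and 1, ATF5, in the astromal list only. MTHFD2, a mitochondrial folate enzyme, had 66.1 stromal and 25.5 astromal for its highest peaks, PSPH of serine synthesis 62.1 stromal and 28.0 astromal, and the stress factor ATF4 54.2 stromal and 33.1 astromal. Cytosolic ribosomal proteins followed with 35 of 63 (55.6%) in both, such as RPS27 (60.8 stromal, 22.9 astromal) and RPL10 (46.2 stromal, 48.4 astromal), with 27 in the stromal list only and RPL32 in the astromal list only. Autophagy and lysosome genes had 12 of 25 (48.0%) in both (ATG12, 54.2 stromal and 25.5 astromal), and TCA cycle and glutamine genes 14 of 30 (46.7%, GOT1, 50.2 stromal and 30.6 astromal), both near the share of all genes. The median log2 ratios of these 4 lists were 0.53, 0.58, 0.79 and 0.71, beside 0.64 over all genes.

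Replication and mitosis genes had the lowest share in both among the lists of 10 or more genes. Of 23 with a downstream peak 20 were in the stromal list only, MCM4 in the astromal list only, and 2 (8.70%) in both. These 2 were CDK4 (34.3 stromal, 25.5 astromal) and TOP2A, with peaks at different sites (21.1 stromal at 608 bp, 17.8 astromal at 353 bp). The stromal list only held 87.0% of them, against 57.1% of all 8599 genes, of which 40.6% were in both. Their stromal peaks were low, as at PCNA (14.5), PLK1 (15.9), MCM5 (15.9), CDK1 (19.8) and MKI67 (21.1). TPX2 (35.7) and, tied at 34.3, CDT1, CCND1 and MCM7 were the highest of those in the stromal list only. The highest stromal peak lay below 23.8 in 13 of the 20 genes in the stromal list only, and in 49.4% of all genes in the stromal list only.

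Of the glycolysis, fatty acid and cholesterol genes, 10 of 15 (66.7%), 13 of 19 (68.4%) and 15 of 21 (71.4%) were in the stromal list only, somewhat above the 57.1% of all genes. In both lists were PFKP (35.7 stromal, 15.3 astromal), PGK1 (29.1 stromal, 22.9 astromal), PFKFB3 and LDHA. The highest peaks of PFKFB3 lay at different sites (26.4 stromal at 419 bp, 15.3 astromal at 175 bp), and its matched pair had a log2 ratio of 0.06. FADS2, a fatty acid desaturase, had 31.7 stromal and 40.8 astromal, and ACACA, which makes malonyl-CoA, 43.6 stromal and 33.1 astromal for its highest peaks. FDPS, which makes farnesyl pyrophosphate, had 52.8 stromal and 30.6 astromal. SCD, the stearoyl-CoA desaturase, had 22.9 in the astromal list only, 25518 bp from the nearest stromal peak. The median log2 ratios of the 3 lists, over 4, 3 and 4 pairs, were 0.20, 0.11 and 0.19, and LDHA was the only called pair.

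Immediate early and growth factor feedback genes had 3 of 18 genes in the astromal list only, 8 in the stromal list only and 7 in both, or 16.7%, 44.4% and 38.9%. Over all genes these shares were 2.31%, 57.1% and 40.6%. JUN had an astromal peak of 38.2 (15 tags) at 430 bp, MYC 33.1 (13 tags) at 542 bp, and SPRY2, a feedback inhibitor of growth factor signalling, 30.6 (12 tags) at 112 bp. MYC had a stromal peak of 56.8 upstream at -405 bp, the stromal peak nearest to that of JUN was 1196 bp away at LINC01135, and the one nearest to that of SPRY2 was 209172 bp away. DUSP1, a phosphatase of MAP kinases, had 44.9 in the stromal list only. FOSL2 (60.8 stromal, 33.1 astromal), IER2 (48.9 stromal, 25.5 astromal) and FOSL1 had peaks in both. Those of FOSL1 lay at different sites (42.3 stromal at 578 bp, 22.9 astromal at 921 bp). H3K27ac of the same condition overlapped a downstream peak of 4 of the 15 stromal genes and 1 of the 10 astromal genes, against 37.2% and 58.4% of all genes with a downstream peak in the list.

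**Figure D5:**
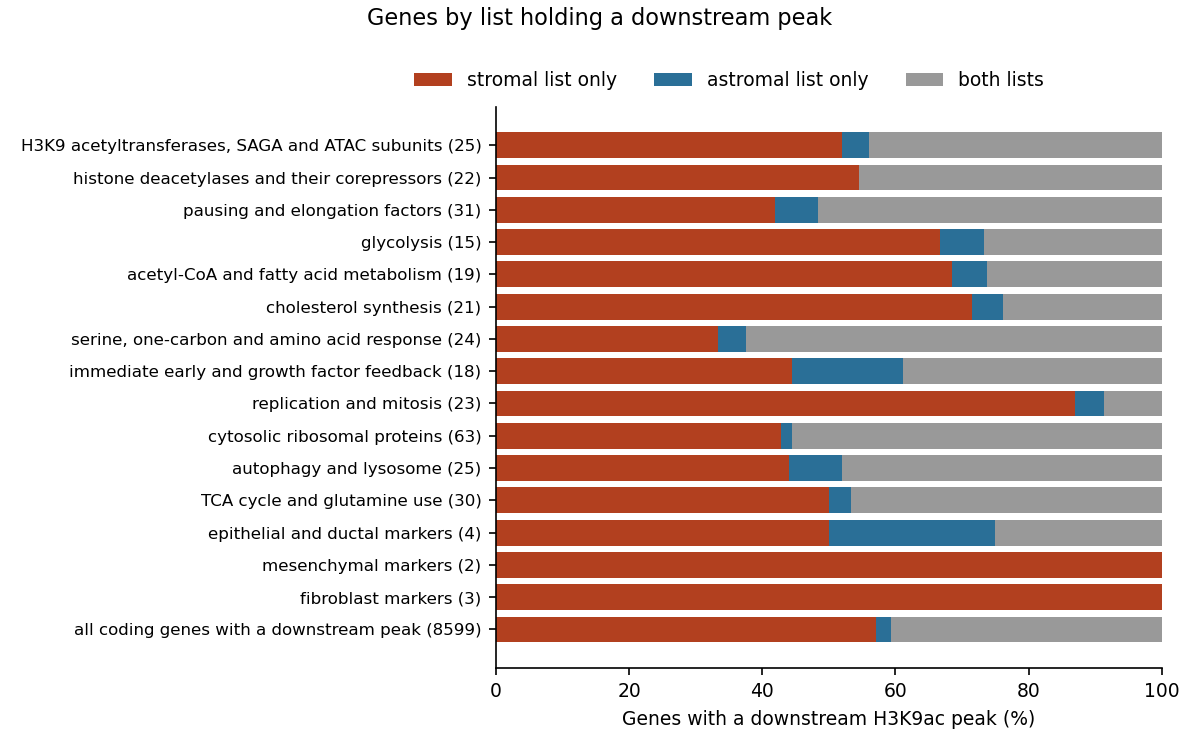
Share of the genes of each list with a downstream H3K9ac peak that had it in the stromal list only (red), the astromal list only (blue) or both lists (grey), with the number of such genes in brackets. The share in both lists runs from 8.70% for replication and mitosis to 62.5% for serine, one-carbon and amino acid response among the lists of 10 or more genes, against 40.6% of all 8599 genes.

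Marker genes for the cells' identity were few. Of 8 epithelial and ductal markers, 4 had a downstream peak: KRT18 (26.4 stromal, 25.5 astromal), KRT8 (26.4) and KRT19 (14.5) in the stromal list only, and CLDN4 (17.8) in the astromal list only, with none for EPCAM, CDH1, KRT7 or MUC1. Of 6 mesenchymal markers, VIM (51.5) and SNAI1 (47.6) had stromal peaks only, while ZEB1, SNAI2, CDH2 and FN1 had none in either list. Of 9 fibroblast markers, COL1A2 (30.4), COL1A1 (17.2) and ACTA2 (14.5) had stromal peaks only, while DCN, LUM, PDGFRB, FAP, THY1 and COL3A1 had none in either list. Over all 8599 genes with a downstream peak, of 20056 coding genes counted for the promoters, 57.1% were in the stromal list only. Among markers in the stromal list only, the highest peak lay below 23.8 in 2 of 3 fibroblast, 0 of 2 mesenchymal and 1 of 2 epithelial genes. Of all genes in the stromal list only, 49.4% were below that level. The part of these markers in the differences between conditions was not tested. No downstream peak was listed for 3 leukocyte markers (PTPRC, CD3E, CD14) or 3 endothelial markers (PECAM1, VWF, CDH5).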

How the data were processed

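Chromatin immunoprecipitation libraries for H3K9ac and H3K27ac were analysed, 1 for each mark in stromal and astromal MIA PaCa-2 cultures. The 4 inputs were not used. CASAVA 1.8.2, Bowtie and HOMER with build hg19 are named in the submitters' processing notes. The H3K27ac lists were called per library by HOMER against input, at an FDR of 0.001 and 4-fold over input and over the local region, per the file headers. For H3K9ac the headers give only the HOMER annotation command, and how its peaks were called is not given in the sources used here. Each list came from 1 library, and its peaks had 1 fixed width. For H3K9ac this was 211 bp stromal and 201 bp astromal, and for H3K27ac 175 bp stromal and 197 bp astromal.

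The authors deposited a signal per peak, the tag count normalised to 10000000 tags, and a fraction of tags in focus, which no result uses. They also deposited fold ratios of H3K27ac over input and over the local region, used only to filter peaks. Distance to the TSS, gene and annotation are the authors' own. H3K9ac signal rises in even steps of 1 tag, each within 0.1 of a whole tag in every peak, which gave tag counts and depths (estimates).

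Members and gene lists were chosen with earlier results of these data known. Peaks were matched at 1 bp of overlap, and pairs were mutual best overlaps. Intervals of shares and tag ratios are exact (Clopper-Pearson, 95%), those of medians are from order statistics, and all cover counting error or the spread across peaks only. No pseudocount was used. A pair was called at 2-fold from the median of all H3K9ac pairs with its interval clear of that median. Named genes were the 10 of highest summed level in 1 list only, the 8 highest and 8 lowest ratios at 20 tags or more, the 5 highest peaks and the 5 strongest with and without H3K27ac of each list, the 5 genes with the most peaks, members of 17 gene lists and the peaks at the window's edges. Strand, needed only for the H3K27ac positions, came from RefSeq and was known for 83.7% of stromal and 85.6% of astromal members. The calling was tested on simulated data, and overlaps were checked with bedtools 2.31.1. Python 3.11.15, pandas 2.3.3, numpy 2.4.6 and scipy 1.17.1 were used.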

Additional observations from a re-analysis of the deposited data

How the results depend on the processing

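No paired analysis was possible because each condition had 1 library per mark. The stromal over astromal number ratio of downstream peaks was 2.26 to 2.45 across 2 other windows, any gene type and a floor at the lowest astromal level. It was 5.56 with at least 10 tags, a floor that is a level of 25.5 in the astromal list and lower in the stromal list by construction. The downstream share was 62.7% within 500 bp in the stromal list, and 73.8% (stromal) and 74.6% (astromal) within 200 bp. The share found in the other list was 23.6% and 56.7% when 50% of the shorter peak had to overlap, 41.2% and 95.7% with centres within 500 bp, 14.6% and 81.1% with at least 10 tags, and 22.8% in the stromal list at a floor of 25.5, a setting added after the data were seen. Genes in the astromal list only numbered 433 in the window of 0 to 500 bp, 80 with at least 10 tags, and 66 when any peak within 1000 bp counted. Genes in both lists numbered 1520 with at least 10 tags and 1438 at the floor of 25.5. The median log2 ratio of matched peaks was 0.57 per bp of peak width and 0.69 when summed per gene. Called pairs numbered 422 higher and 0 lower without centring, and 0 and 2 among the 37 pairs of 20 or more tags per library. That floor of 20 tags also asks a higher level of astromal than of stromal peaks, by construction. The median distance was 304 bp for stromal peaks of genes in both lists, against 313 bp for the astromal ones, so the order of the conditions turned there, and 289 bp for astromal peaks with at least 10 tags. The share with H3K27ac in the same condition was 26.8% (stromal) and 41.7% (astromal) at 50% overlap, 50.1% and 75.5% with centres within 500 bp, 19.2% and 38.5% with H3K27ac peaks at or above the median fold over input, and 65.2% for astromal peaks with at least 10 tags. Under each of these H3K27ac settings the downstream share stayed below the upstream share of the same list. Where no construction is named, the cause was not tested. The astromal H3K9ac depth, a median of 9 tags per peak, limits every comparison of single peaks.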
